A study of Arabidopsis thaliana with 4 samples.

Results

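Leaves of Arabidopsis thaliana plants that overexpress ERD15 were compared with leaves of vector control plants after both had been sprayed with abscisic acid (ABA). The comparison rests on 2 of the 4 Affymetrix ATH1 arrays of the study. It was chosen by the array titles: the array of overexpressor line 52 sprayed with 100 µM ABA (overexpressor ABA) and the array of control plants with pCP60 given the same spray (vector ABA). The other arrays come from the overexpressor (overexpressor mock) and from vector plants (vector mock) sprayed with water that held the same 0.07% ethanol as the ABA spray. All plants were in the Col-0 background, 3 weeks old, started on kanamycin and grown in soil, and rosette leaves were taken 90 min after the spray. Leaves of 3 plants were pooled per sample by the labels of all samples but vector mock, whose label does not say. The overexpressor is 1 transgenic line, the promoter of the transgene is not given in the sources used here, and 1 characteristic of the overexpressor samples calls them a gene knock-out, against their titles and source names. The overexpressor reading was used. With 1 array per group there is no replicate check anywhere below, and every value describes these arrays.

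ABA is the hormone that plants make under drought. It closes stomata and switches on genes for protective proteins such as dehydrins, and it acts against several defence pathways. ERD15 (early responsive to dehydration 15) is a small acidic protein that carries a motif for binding the C-terminal domain of poly(A)-binding proteins, and it is known in Arabidopsis as a negative regulator of ABA responses. The comparison addresses which transcripts differ with extra ERD15 when ABA is present.

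No probe set is paired with ERD15 in the annotation used here, so its level was not analysed here and could not serve to check the genotypes. The lists of core ABA signalling genes and of poly(A)-binding proteins with their partners likewise held no measured gene. A gene is called measured where a probe set paired with that gene alone had a mean signal of at least 29.03 over the 4 arrays, which left 7322 genes. Just inside this limit AT1G67720 had a mean signal of 29.04 and a log2 difference of 0.72, and just outside it AT5G42290 had 29.02 and -0.70. Signals under 13.3 were raised to that floor, and a fold that involves the floor is written "at least". Of the measured genes, 1065 have a symbol beyond the locus tag. The other genes are given by locus tag, with a role only where the gene table lists a descriptive synonym.

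The leaf label was checked against photosynthesis markers. RCA (rubisco activase) had signals of 7032 on overexpressor ABA and 6908 on vector ABA. LHCB4.2 (a light-harvesting protein) had 5803 on overexpressor ABA and 6040 on vector ABA. PORB, the other measured leaf marker, differed, with 2278 on overexpressor ABA and 997 on vector ABA, and is described below. The guard cell gene FMA, which drives the last step of guard cell differentiation, had 47.9 on overexpressor ABA and 61.7 on vector ABA. No marker of vasculature, roots, flowers and seeds or trichomes was measured. The deposited trimmed means were between 99.1 and 99.3. The 25S ribosomal RNA control differed between the ABA arrays, with 839 on overexpressor ABA against 2126 on vector ABA, and 9 hybridization spike-in probe sets were higher on overexpressor ABA by log2 differences of 0.00 to 0.89, with a median of 0.27. The part of these control differences in the gene values was not tested.

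At 2-fold, 288 genes were higher and 156 lower in the overexpressor under ABA, or 3.93% and 2.13% of the 7322 genes, together 6.06%. Most genes lay close to equal: 79.4% were within 1.5-fold, and the 5th and 95th percentiles of the log2 difference were -0.71 and 0.92. Which direction held more genes changed with the scaling. After quantile normalization, which gives every array the same distribution of signals, 164 genes were higher and 218 lower (2.24% and 2.98%, together 5.22%). A loess fit of the difference on signal gave 142 higher and 221 lower genes (1.94% and 3.02%, together 4.96%). In both the deposited and the quantile scaling, 161 genes were higher and 149 lower at 2-fold. Over all 13645 probe sets other than controls, 3.5% were higher and 2.37% lower (together 5.86%) in the deposited scaling.

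The higher genes of the deposited scaling were mostly dim. When genes were split into 10 bins of mean signal, the dimmest bin had a median log2 difference of 0.28, with 104 genes higher and 35 lower. The brightest bin had a median of -0.09, with 2 higher and 12 lower. Quantile normalization brought these medians to 0.05 and 0.02. Under the 60th percentile of signal (63.0) lay 235 of the 288 higher genes (81.6%) and 97 of the 156 lower genes (62.2%), against 36.2% of all measured genes. In 27 of the higher and 27 of the lower genes 1 ABA array was at the floor.

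**Figure D1:**
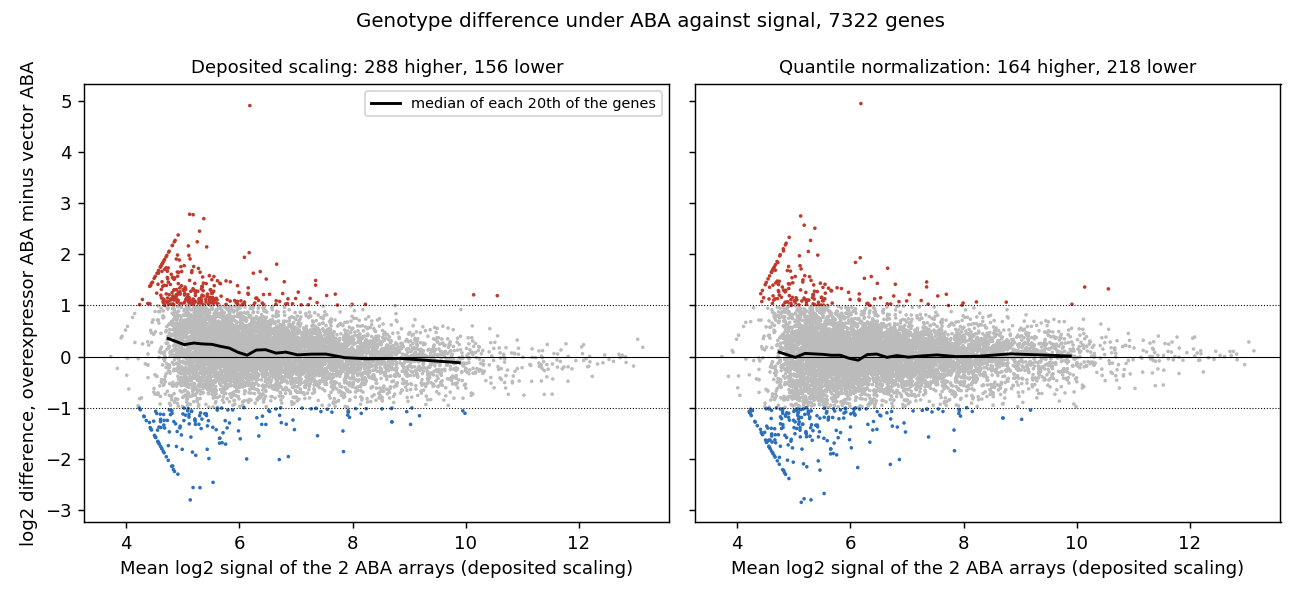
The log2 difference of overexpressor ABA minus vector ABA is plotted for 7322 genes against the mean log2 signal of both ABA arrays, in the deposited scaling (left) and after quantile normalization (right). Points past the dotted lines are at least 2-fold higher (red) or lower (blue), 288 and 156 on the left, 164 and 218 on the right, and the black line of running medians slopes down with signal on the left and is nearly flat on the right.

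The largest difference was that of AT5G19540, with a signal of 399 on overexpressor ABA against the floor of 13.3 on vector ABA, at least 30.1-fold higher. It was at 401 on overexpressor mock and at the floor on vector mock, so both overexpressor arrays were high and both vector arrays at the floor. PRA1.H, a prenylated RAB acceptor of the group that acts in vesicle traffic, followed with 91.4 on overexpressor ABA against the floor on vector ABA, at least 6.89-fold higher. Its mock signals were 71.5 in the overexpressor and 57.1 in the vector plants, so vector ABA was the 1 low array of the 4. AT2G44240 had 95.1 on overexpressor ABA and 13.9 on vector ABA, and 698 on overexpressor mock against the floor on vector mock. It was thus high in the overexpressor under both sprays and lower there with ABA than with mock. AT1G23720 had 106 on overexpressor ABA and 16.2 on vector ABA, but 33.2 on overexpressor mock and 68.9 on vector mock, so the direction turned between the sprays.

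Among the other 15 largest higher genes were AT4G24880 (at least 5.20-fold), AT2G42710 (at least 4.83-fold), AT2G40580 (at least 4.74-fold), AT5G28580 (at least 4.52-fold), AT2G27330 (at least 4.51-fold), AT5G43100 (4.49-fold) and AT3G24150 (at least 4.12-fold). Their signals on overexpressor ABA were all between 54.7 and 72.6, not far above the filter.

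The antimicrobial genes held differences in both directions. PDF1.2 and PDF1.2b encode plant defensins, small secreted antifungal peptides whose genes are standard reporters of jasmonate and ethylene signalling. PDF1.2b had a signal of 92.0 on overexpressor ABA against 16.8 on vector ABA (5.48-fold), with 37.0 on overexpressor mock and 40.3 on vector mock. PDF1.2 had 90.3 on overexpressor ABA against 20.4 on vector ABA (4.43-fold), with 37.8 on overexpressor mock and 52.2 on vector mock. For both genes overexpressor ABA was the highest array and vector ABA the lowest, with the mock arrays between them. The genes are near-identical copies and their probe sets may share transcripts, so they are not separate evidence.

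THI2.2, the gene of a thionin, a membrane-damaging peptide toxic to microbes, had the lowest difference of all. Both overexpressor arrays were at the floor, against 92.7 on vector ABA and 76.6 on vector mock, and was at least 6.99-fold lower under ABA. The chitinase gene CHI had 1328 on overexpressor ABA and 701 on vector ABA (1.89-fold), a difference far under that of the mock arrays, where it had 2575 in the overexpressor and 168 in the vector plants. LCR68 and LCR69, for low-molecular-weight cysteine-rich proteins, had log2 differences of -0.33 and 0.09. The list thus had 2 of 6 measured genes past 2-fold upwards, the defensin pair, and 1 downwards, against 3.93% and 2.13% of all genes. After quantile normalization CHI was past 2-fold too (a log2 difference of 1.02). The list then had 3 of 6 genes upwards and 1 downwards, against 2.24% and 2.98% of all genes. Both counts take the near-identical defensins as 2 genes, though they are not separate evidence.

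GI (GIGANTEA), which links the circadian clock to flowering by day length, was the 1 measured clock gene. Its signals were 184 on overexpressor ABA and 66.7 on vector ABA (2.76-fold), with 150 on overexpressor mock and 135 on vector mock. Vector ABA was the low array, and the others lay within 1.5-fold of each other. CCL, named CCR-like in the gene table, was the largest difference upwards among bright genes, here genes with a mean signal of at least 294. It had 1715 on overexpressor ABA and 742 on vector ABA (2.31-fold), and 1160 on overexpressor mock against 592 on vector mock, so both overexpressor arrays were above both vector arrays. PORB, an enzyme that reduces protochlorophyllide to chlorophyllide in the light, had 2278 on overexpressor ABA and 997 on vector ABA (2.28-fold). With 2091 on overexpressor mock and 2694 on vector mock, vector ABA was again the low array.

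The other measured genes of light harvesting, photosystems and rubisco did not share the difference of PORB. Of 9, PORB was the 1 past 2-fold. The others, among them LHCB4.1, LHCB4.3, PSBW, PSAE-1 and PSAN, had log2 differences between -0.24 and 0.03. Genes of chlorophyll synthesis were CHLM (-0.44), CHLI2 (-0.55), GSA1 (-0.43) and HEMA2 (0.44), none past 2-fold. Of 69 genes of the plastid genome none was past 2-fold, and their median was -0.12, or 0.00 after quantile normalization.

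Genes of the list of dehydrin, COR and LEA (late embryogenesis abundant) proteins, which protect cells in drying and cold, were close to equal. COR15A had 1044 on overexpressor ABA and 1033 on vector ABA, against 217 on overexpressor mock and 305 on vector mock. COR47 had 1985 on overexpressor ABA and 1924 on vector ABA, and its mock signals were 579 in the overexpressor and 1365 in the vector plants. The ABA arrays were thus near each other for both genes, whatever the mock arrays showed. None of the 7 measured members was past 2-fold, and their log2 differences lay between -0.06 (LTI30) and 0.46 (COR15B). Not all members were raised by ABA here. In vector plants LTI30 had 220 with ABA and 76.9 with mock, but AT2G44060 had 1136 and 1014, and AT2G46140 had 51.6 and 52.2. PUB19, a U-box ubiquitin ligase known as a negative regulator of ABA responses, did differ: it had 427 on overexpressor ABA and 210 on vector ABA (2.03-fold), with 30.0 on overexpressor mock and 34.6 on vector mock. Both ABA arrays were far above both mock arrays, and overexpressor ABA was the highest.

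A further 4 higher genes had low signals. RBL (RbBP5 LIKE), a homologue of a subunit of histone H3 lysine 4 methyltransferase complexes, had 83.3 on overexpressor ABA against 17.5 on vector ABA (4.74-fold), with 77.9 on overexpressor mock and 45.0 on vector mock. ATIM, with the synonym TIMELESS, had 55.4 on overexpressor ABA against the floor on vector ABA (at least 4.18-fold), and turned the other way under mock, with 18.4 in the overexpressor and 58.5 in the vector plants. UNG, a uracil DNA glycosylase that removes uracil from DNA, had 47.9 on overexpressor ABA against the floor on vector ABA (at least 3.61-fold). RAD4, whose yeast namesake recognises damage in nucleotide excision repair, had 61.4 on overexpressor ABA and 26.7 on vector ABA (2.30-fold). Under mock UNG and RAD4 were both lower in the overexpressor, with log2 differences of -0.46 and -0.74. These 4 genes were picked after their values were seen and stand for no list. The histone list, described with the other lists, had a median of -0.30.

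The remaining higher genes with a symbol and a 2-fold difference in both scalings belonged to metabolism, transport and protein breakdown. CXE20, a carboxylesterase, had 60.3 on overexpressor ABA and 17.6 on vector ABA (3.43-fold), and 40.7 on overexpressor mock against the floor on vector mock, so it was higher under both sprays. LpxB, named after an enzyme of lipid A synthesis, had 47.3 on overexpressor ABA and 14.9 on vector ABA (3.18-fold). QQS, a gene known to lower leaf starch, had 65.3 on overexpressor ABA and 25.2 on vector ABA (2.59-fold). All of these signals are in the dim range of the arrays. GLR1.4, a glutamate receptor-like channel, was brighter, with 226 on overexpressor ABA and 103 on vector ABA (a log2 difference of 1.14), and 204 on overexpressor mock against 62.1 on vector mock. DELTA-OAT, which converts ornithine in arginine breakdown, had 152 on overexpressor ABA and 72.1 on vector ABA (2.11-fold). SCPL49, a serine carboxypeptidase-like protein, had 239 on overexpressor ABA and 115 on vector ABA (2.08-fold). For GLR1.4 and DELTA-OAT both overexpressor arrays were above both vector arrays, and for SCPL49 too.

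In the other direction, cell wall genes were among the named ones. GH9B8, a glycosyl hydrolase of family 9, had 22.1 on overexpressor ABA against 88.0 on vector ABA (3.99-fold lower), and 20.6 on overexpressor mock against 46.9 on vector mock. XTH33, a xyloglucan endotransglucosylase/hydrolase, a class that cuts and rejoins wall xyloglucan, had 29.3 on overexpressor ABA and 79.2 on vector ABA (2.70-fold lower), with 165 on overexpressor mock and 272 on vector mock. TBL45, a TRICHOME BIREFRINGENCE-LIKE protein (members of this family attach acetyl groups to wall polymers), had 70.1 on overexpressor ABA and 143 on vector ABA (2.04-fold lower), with 541 on overexpressor mock and 962 on vector mock. These genes were lower in the overexpressor under both sprays, and the mock arrays of XTH33 and TBL45 were above both ABA arrays. TUB1, a beta-tubulin of the microtubules, had 28.4 on overexpressor ABA and 67.7 on vector ABA (2.39-fold lower), and 27.5 on overexpressor mock against 60.5 on vector mock. Its overexpressor arrays were alike and so were its vector arrays.

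As lists, the wall genes moved less than these examples. Of 7 measured XTH genes 6 were below 0, 1 of them at least 2-fold, with a median of -0.17. XTH16 and XTH32 had -0.81 and -0.89 under ABA and -1.05 and -1.32 under mock. The 3 measured genes of pectin methylesterases, which change the stiffness of wall pectin, were ATPMEPCRB (-0.38), PME61 (-0.78) and PMEPCRF (-0.01), all above 0 under mock (1.24, 0.87 and 1.53). Of 10 expansin genes, whose proteins loosen walls, 7 were below 0 and none was past 2-fold (median -0.37). Of 22 genes for wall polymers and proteins 1 was higher, CSLC12 (1.07), and 1 lower, TBL45 (-1.03), with a median of -0.01. After quantile normalization CSLC12 had 0.90 and was no longer past 2-fold, while TBL45 had -1.10. AT2G31110, a member of this list, had 2 probe sets past the filter, at -1.93 and 0.34. Only the value of 0.34 entered the list. Over all genes the median was 0.08, and 42.3% were below 0 (48.2% after quantile normalization).

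Other single genes lower in the overexpressor had varied roles. Cpn60beta2, a subunit of the plastid chaperonin that folds rubisco, had 137 on overexpressor ABA and 377 on vector ABA (2.75-fold lower), with 312 on overexpressor mock and 284 on vector mock. Overexpressor ABA was its 1 low array. STOMAGEN (EPFL9), a peptide that raises stomatal density, had 14.3 on overexpressor ABA and 38.7 on vector ABA (2.71-fold lower). RALFL22, of the rapid alkalinization factor family of signalling peptides, had 194 on overexpressor ABA and 419 on vector ABA (2.16-fold lower), with 299 on overexpressor mock and 217 on vector mock. Its vector ABA array was the high one and its overexpressor ABA array the low one. HYH, the homologue of the light-signalling factor HY5, had 22.3 on overexpressor ABA and 49.3 on vector ABA (2.22-fold lower). SIC (SICKLE), needed for normal RNA processing, had 14.8 on overexpressor ABA and 38.6 on vector ABA (2.60-fold lower). Both genes had mean signals not far above the filter.

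MSRB6, a methionine sulfoxide reductase that repairs oxidised methionine, had 168 on overexpressor ABA and 350 on vector ABA (2.09-fold lower), with 77.9 on overexpressor mock and 102 on vector mock. ZIP6, of a family of metal transporters, was at the floor on overexpressor ABA and at 35.3 on vector ABA (at least 2.66-fold lower). UGT78D1, which adds rhamnose to flavonols, was at the floor on overexpressor ABA and at 30.0 on vector ABA (at least 2.26-fold lower). OLEO3, an oleosin of oil bodies, had 15.8 on overexpressor ABA and 34.2 on vector ABA (2.17-fold lower). These 31 genes, 17 higher and 14 lower, are all those with a symbol that were past 2-fold in both scalings, and they were taken up after the values were seen.

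**Figure D2:**
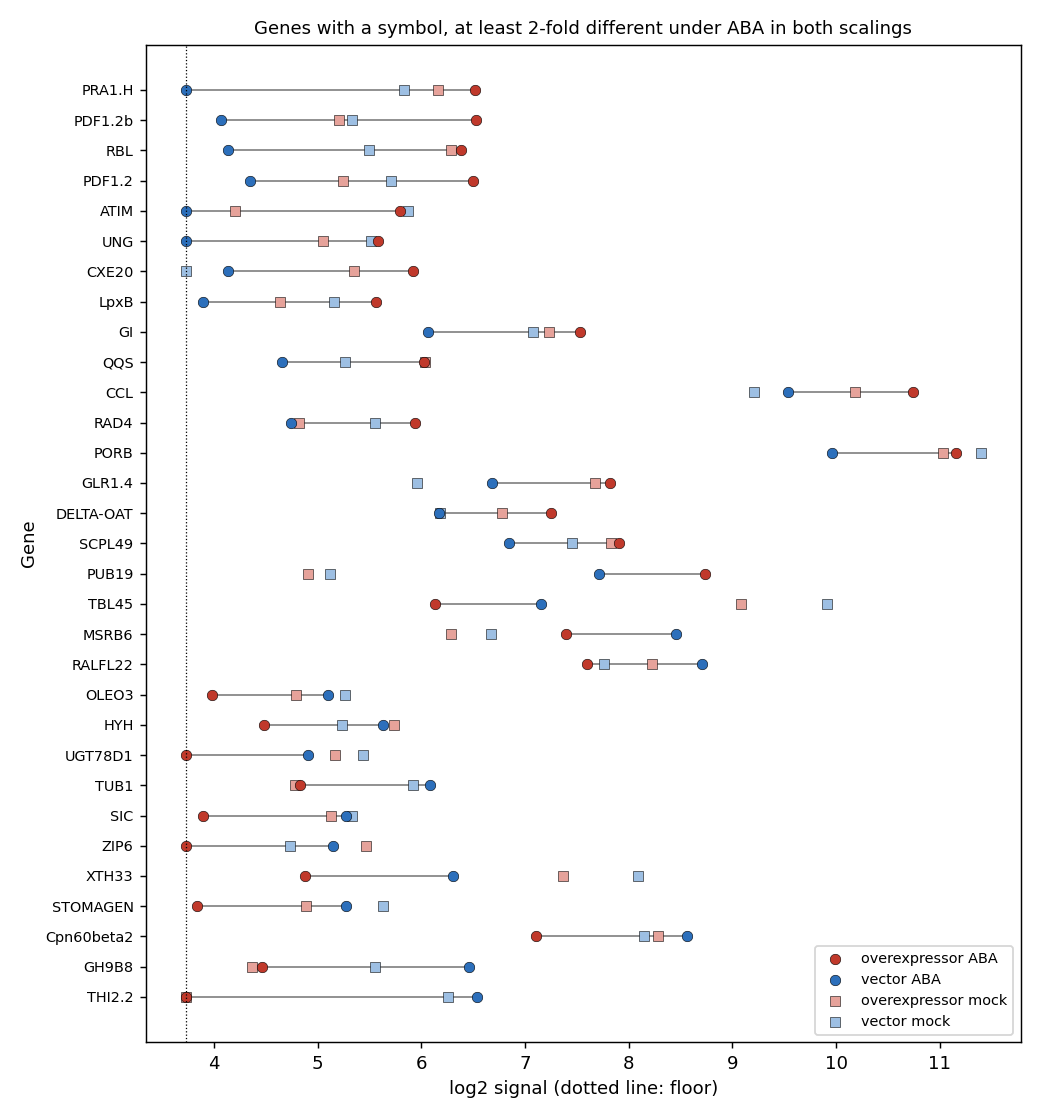
Log2 signals on the 4 arrays are shown for the 31 genes with a symbol and a difference of at least 2-fold under ABA in both scalings, with a line from overexpressor ABA (red circles) to vector ABA (blue circles) and squares for the mock arrays. For GI, PORB and PRA1.H the vector ABA circle lies apart to the left of the other 3 points, and for Cpn60beta2, STOMAGEN and SIC the overexpressor ABA circle does.

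Among the lowest genes without a symbol, AT5G12110 had 16.2 on overexpressor ABA and 96.1 on vector ABA (5.92-fold lower), with 145 on overexpressor mock and 102 on vector mock. AT3G50780 had 14.9 on overexpressor ABA and 88.3 on vector ABA (5.91-fold lower), with 58.3 on overexpressor mock and 92.9 on vector mock. In both genes overexpressor ABA was the 1 low array. AT1G11850 had 19.7 on overexpressor ABA and 109 on vector ABA (5.51-fold lower), and was at the floor on overexpressor mock and at 50.2 on vector mock. AT5G48490 had 59.2 on overexpressor ABA and 230 on vector ABA, and 34.6 on overexpressor mock against 141 on vector mock. AT1G04800 had 34.9 on overexpressor ABA and 140 on vector ABA, and 22.9 on overexpressor mock against 118 on vector mock. The last 3 were low on both overexpressor arrays. AT3G54400 (4.05-fold lower) was low on both too, with a log2 difference of -1.03 under mock. The others of the 15 lowest were AT1G16690, AT5G42720, AT1G60230, AT5G46560, AT3G06520, AT5G40540 and AT1G74780, from 4.93-fold to at least 3.89-fold lower, each with a signal of 13.6 or less on overexpressor ABA.

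Of 968 bright genes, CCL and PORB were the 2 past 2-fold upwards (0.207%), and 13 were past it downwards (1.34%, together 1.55%). After quantile normalization these counts were 4 and 6. Since bright is set on the mean of the 4 arrays, 2 of the 13 were dim on the ABA arrays: TBL45, and AT4G21870 with 63.5 on overexpressor ABA and 132 on vector ABA. The lowest were AT5G47190, with 329 on overexpressor ABA and 826 on vector ABA (2.51-fold lower), AT3G53890, with 265 on overexpressor ABA and 644 on vector ABA (2.43-fold lower), and AT3G09500, with 267 on overexpressor ABA and 647 on vector ABA (2.43-fold lower). AT3G08740, AT5G20290 and AT3G62870 were 2.23-fold, 2.16-fold and 2.11-fold lower. Of the 13, 12 had their lowest signal of the 4 arrays on overexpressor ABA, against 24.7% of all bright genes. The 13 were picked as low on that array against vector ABA, which by itself favours this count. Under mock 6 of them were within 1.5-fold, such as AT3G53890 with 468 in the overexpressor and 454 in the vector plants, and 2 were at least 2-fold lower, such as AT5G47190 with 365 in the overexpressor and 852 in the vector plants. After CCL and PORB the largest differences upwards were AT5G27280 (1.99-fold), CHI, AT4G01610 (1.89-fold) and GAMMA-VPE, a vacuolar processing protease (1.79-fold).

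The other lists with any member past 2-fold had 1 or 2 of them, set against 6.06% of all genes past 2-fold in either direction. Of 18 sugar and nitrate transport genes, AT3G25260 (NPF4.1, of the nitrate and peptide transporter family) had a log2 difference of 1.71 and SWEET16, a sugar exporter of the vacuole, 1.08, against a list median of 0.15. AT3G25260 had a mean signal of 29.09, just above the filter, and SWEET16 was lower in the overexpressor under mock (-1.68). Of 19 protease genes, SCPL49 (1.06) and scpl33 (1.02) were past 2-fold, with a median of 0.14. Of 4 gibberellin and brassinosteroid genes, the gibberellin receptor GID1A was higher (1.05), while its relatives GID1C and GID1B had 0.70 and -0.46. Of 16 bHLH and bZIP factors bHLH34 was higher (1.07, list median 0.06), and of 23 redox genes the peroxidase gene AT2G41480 (1.03, list median -0.11). Of these, SCPL49 and AT3G25260 stayed past 2-fold after quantile normalization, and SWEET16, scpl33, GID1A, bHLH34 and AT2G41480 did not, with 0.82 to 0.95. PUB19 was the 1 of 11 ubiquitin ligase genes past 2-fold (list median 0.28), UGT78D1 the 1 of 27 glycosyltransferase genes (median 0.00), and TUB1 the 1 of 8 tubulin and actin genes (median -0.26).

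No member past 2-fold was found in 18 of the 32 lists with a measured gene. Counts below 0 in these small lists are to be read beside the 42.3% of all genes that were below 0. Of 11 autophagy genes 2 were below 0, and the median was 0.24, or 0.31 after quantile normalization. ATG8G and ATG8B, which encode small proteins of the autophagosome membrane, had 0.69 and 0.61. Of 6 WRKY factors, W-box binding regulators of defence and senescence, WRKY53 had 0.42 and WRKY6 -0.13, with a median of 0.21. The 2 salicylic acid genes were GRX480 (0.64) and SAG101 (0.06). The 6 auxin genes had a median of -0.01 and ranged from WES1 (-0.25) to YUC2, an enzyme of auxin synthesis (0.98). Of 5 histone genes 3 were below 0, with HTB4 lowest (-0.88), and of 4 calcium-binding protein genes 3 were, with CML42 lowest (-0.59) and CML41 highest (0.71). The medians were 0.11 for 11 cytochromes P450, 0.08 for 4 glucosinolate genes and 0.08 for 3 flavonoid genes. They were 0.39 for 2 MYB genes and -0.04 for 2 senescence genes. The 3 leaf markers, outside these 18 lists because PORB was past 2-fold, had a median of 0.03. Some of these values near 0 changed side after quantile normalization, such as the flavonoid median and SAG101 (-0.03). The reference list PEX4, GAPC2, AT2G28390 and AT4G34270 had differences of 0.04, -0.74, 0.00 and -0.18. GAPC2 was thus 1.67-fold lower in the overexpressor under ABA in the deposited scaling, with a log2 difference of -0.57 after quantile normalization.

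**Figure D3:**
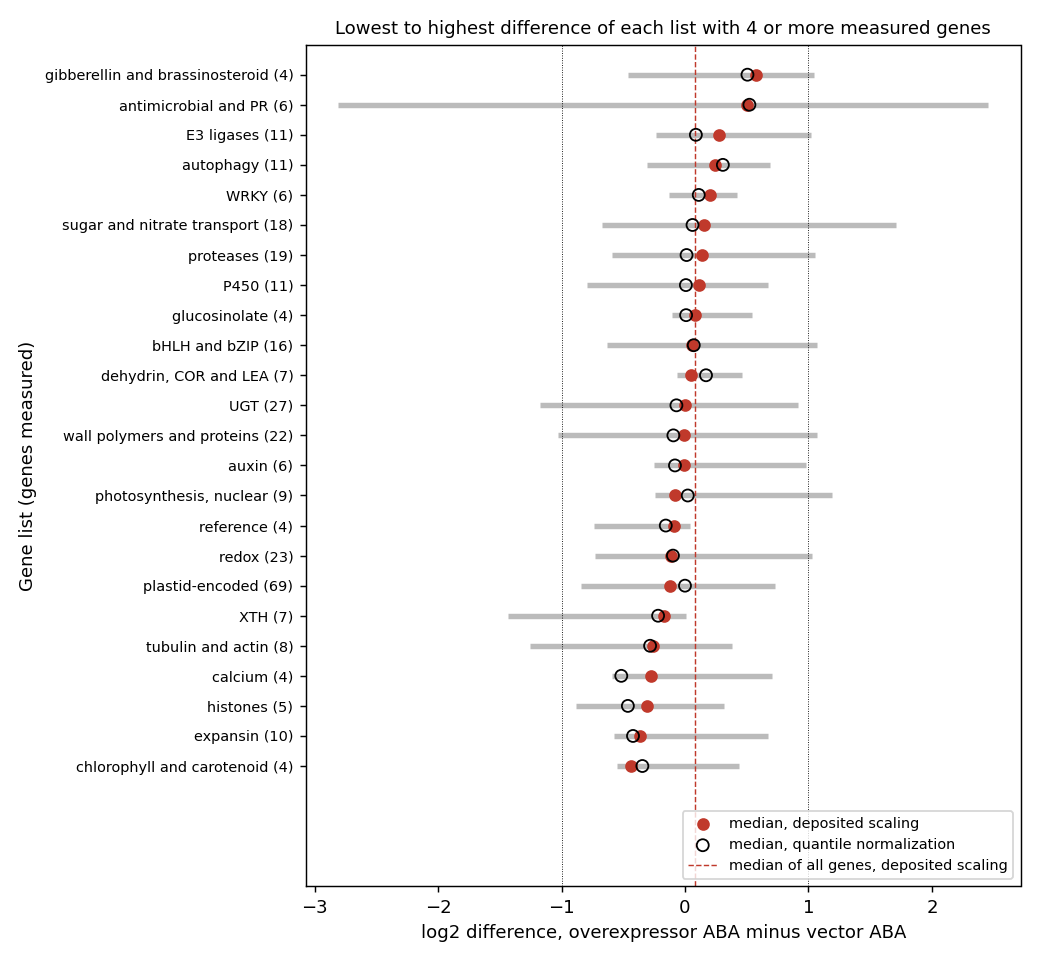
For each list with 4 or more measured genes, the grey bar runs from the lowest to the highest log2 difference of overexpressor ABA minus vector ABA, with the median in the deposited scaling (red) and after quantile normalization (open circle). List medians lie between -0.43 and 0.58 around the median of all genes (0.08), and the widest bar is that of the antimicrobial genes, from -2.81 (THI2.2) to 2.45 (PDF1.2b).

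The mock arrays are separate arrays and give the genotype difference without ABA. At 2-fold, 359 genes (4.9%) had a higher and 397 (5.42%) a lower signal in the overexpressor under mock, together 10.3% of the 7322 genes, against 6.06% under ABA. After quantile normalization 408 were higher and 264 lower under mock (5.57% and 3.61%, together 9.18%), so the direction with more genes turned here too. Of the 288 genes higher under ABA, 23 passed 2-fold upwards under mock too (7.99%, against 4.9% of all genes). Of the 156 lower genes 28 were lower under mock (17.9%, against 5.42% of all genes). By sign alone, 107 of the 288 higher genes were above 0 under mock (37.2%), below the 43.8% of all genes, and 109 of the 156 lower genes were below 0 (69.9%), above the 56.2% of all genes. The median mock differences were -0.22 for the higher genes and -0.36 for the lower genes, against -0.09 for all genes. After quantile normalization the shared counts were 17 of 164 higher genes (10.4%) and 24 of 218 lower genes (11.01%). In that scaling 5.57% of all genes were higher and 3.61% lower under mock. By sign, 82 of those 164 were then above 0 under mock, against 45.9% of all genes, and 140 of the 218 were below 0 (64.2%), against 54.0% of all genes. The contrast between higher and lower genes was thus smaller in that scaling, but the lower genes stayed further above the share of all genes. The median deposited signals were 45.8 on overexpressor ABA and 39.9 on vector ABA, and 40.1 on overexpressor mock and 45.1 on vector mock, and the part of this in the counts was not tested. In opposite directions were 37 of the 7322 genes in the deposited scaling. They were 31 of the 288 genes higher under ABA, against 5.42% of all genes lower under mock. The others were 6 of the 156 lower genes, against 4.9% of all genes higher under mock. Of these 37, 14 passed 2-fold both ways after quantile normalization too, 8 of the 31 and all 6 of the others, so the uneven split was not kept.

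**Figure D4:**
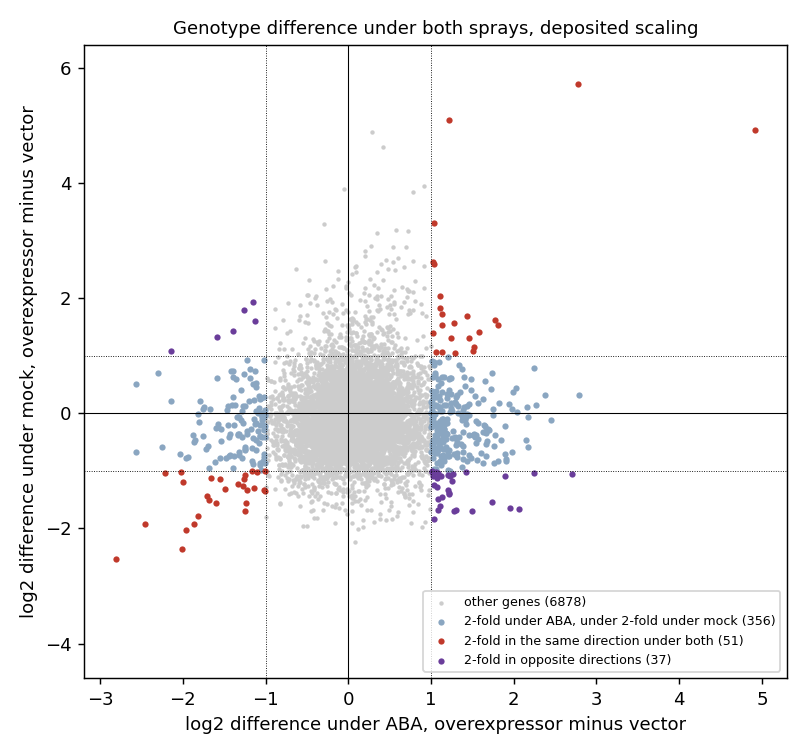
Each point is 1 of 7322 genes, with its log2 difference of overexpressor minus vector under ABA on the horizontal axis and under mock on the vertical axis. The 51 genes past 2-fold on the same side under both sprays (red) include AT5G19540 at the upper right and THI2.2 at the lower left, and 37 genes (purple) lie in the opposite quadrants, all in the deposited scaling.

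Which ABA array set a difference was counted against all 4 arrays, a count chosen after the values were seen. Of the 288 higher genes, overexpressor ABA was at least 2-fold above each of the other arrays in 13, while vector ABA was at least 2-fold below each of the others in 63, in 20 of them at the floor. Of the 156 lower genes, overexpressor ABA was at least 2-fold below each of the others in 59, in 19 of them at the floor, and vector ABA at least 2-fold above each in 9. Among these called genes, those with 1 array apart were thus mostly genes with 1 low array, in either direction. The same count over all genes or for the mock arrays is not given here, so the pattern cannot be called particular to the ABA arrays. After quantile normalization overexpressor ABA was high alone in 10 and vector ABA low alone in 47 of the 164 higher genes, and overexpressor ABA was low alone in 95 and vector ABA high alone in 10 of the 218 lower genes. Among genes with a mean signal of at least 63.0, overexpressor ABA was high alone in 5 and vector ABA low alone in 9 of 53 higher genes, and overexpressor ABA was low alone in 21 and vector ABA high alone in 4 of 59 lower genes.

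**Figure D5:**
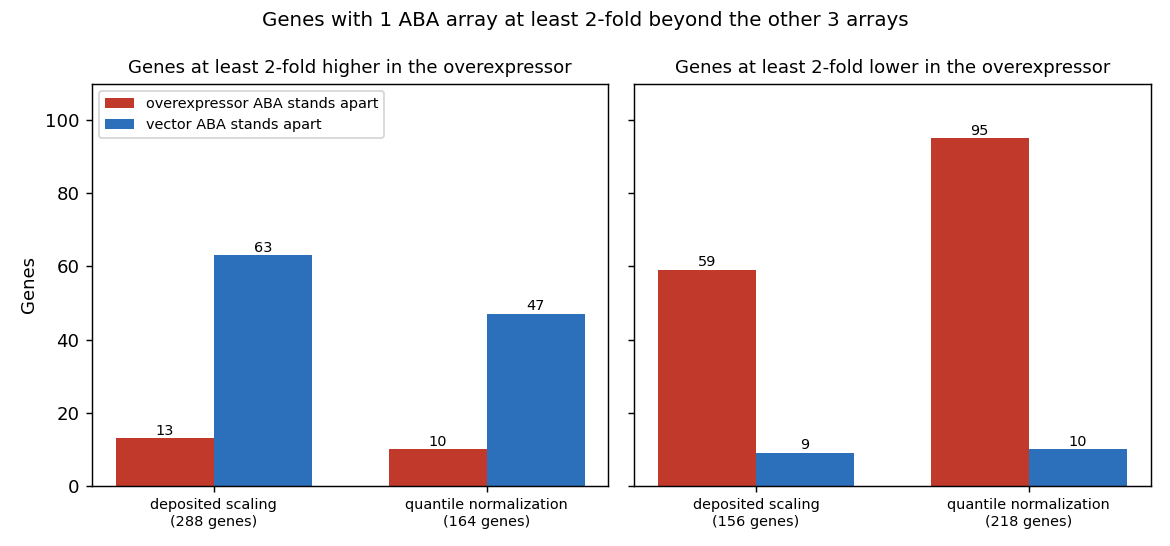
Bars count the genes in which overexpressor ABA (red) or vector ABA (blue) was at least 2-fold beyond all of the other 3 arrays, among genes at least 2-fold higher (left) and lower (right) in the overexpressor under ABA. The taller bars are vector ABA among higher genes (63 and 47) and overexpressor ABA among lower genes (59 and 95), in both cases the array with the low signal.

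Where a gene had several probe sets, they gave a check within the arrays. Of 73 such genes 44 had all probe sets on the same side of 0. In 11 genes at least 1 probe set was past 2-fold, in 0 were all of them, and in 0 did the probe sets pass 2-fold in opposite directions. Among these 11, the probe sets of AT1G22330, AT2G20740, AT2G31110, AT5G44820, AT5G63200 and nad1 lay on both sides of 0. The probe sets of each of the other genes of the 11 lay on the same side. Of 2088 pairs of neighbouring genes on the chromosomes with both members measured, 2 were past 2-fold on the same side: AT1G56290 (1.23) with AT1G56300 (1.49), and AT4G04750 (1.02) with AT4G04760 (1.13), all higher in the overexpressor. After quantile normalization AT1G56300 kept a difference past 2-fold (1.46), and the other 3 had 0.90 to 0.96.

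Probe sets with no gene name in the annotation differed about as often. Of 5976 past the filter, 2.96% were higher and 2.51% lower at 2-fold in the overexpressor under ABA (together 5.47%), or 1.97% and 3.28% after quantile normalization (together 5.25%).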

How the data were processed

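RNA of rosette leaves was hybridised to 4 ATH1 arrays, 1 per group. The deposited values are intensities on a linear scale. Per the submitters' processing notes, the deposited intensities came from MAS5. The version is not given in the sources used here. No detection calls were used. Signals were rescaled so that the mean of an array, without the 2% of values at each end, was 100, then raised to the pooled 25th percentile of signal (13.3) and put on a log2 scale. Genes under the pooled 40th percentile of the mean (29.03) were left out. Of 22810 probe sets, 13513 are paired with 1 gene, 503 with several (not used) and 8730 non-control probe sets with none; 13436 matched the TAIR10.1 RefSeq table, used for names and gene order. For a gene with several, the probe set of highest mean was taken.

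Differences are overexpressor minus vector, with no test, since each group is 1 array. Quantile normalization, median-centring and loess (statsmodels 0.14.6, span 0.4) were tried, with other floors and filters, and were checked on simulated data. Named were the 15 highest and 15 lowest genes past 2-fold in both scalings, the 6 highest and 6 lowest bright genes (at or above the 90th percentile), up to 4 members of each list, the 6 largest in opposite directions under both sprays, all reference genes, and 4 probe sets with no gene name. The members and the lists were chosen with earlier results of these data known. List definitions were also corrected after the values were seen, where names matched the wrong genes; the list of plastid genes was then taken by chromosome, and lists whose members no table annotated were dropped after their values had been looked at. Cell numbers and RNA per cell cannot be told apart in bulk leaves. The precision is limited by the number of arrays.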

Additional observations from a re-analysis of the deposited data

Results flagged for a closer look

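The genotype difference had opposite signs under both sprays at 2-fold in 37 of 7322 genes in the deposited scaling, a difference that was not tested. The largest were AT1G23720, with a log2 difference of 2.70 under ABA and -1.05 under mock, AT2G40580 (at least 2.25 and -1.03), AT5G46560 (-2.15 at most, and 1.08), ATIM (at least 2.06, and -1.67), AT2G25565 (at least 1.95, and -1.65) and AT1G32660 (1.89 and -1.08). Of the 288 genes higher under ABA 31 were at least 2-fold lower under mock, against 5.42% of all genes. Of the 156 lower genes 6 were higher under mock, against 4.9% of all genes. Of the 37, 14 passed 2-fold both ways after quantile normalization too, and 2 had a mean signal of at least 63.0. AT1G23720, AT2G40580 and AT1G32660 were not among the 14, with mock differences of -0.90, -0.75 and -0.81 in that scaling.

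Probe sets with no gene name were outside the main comparison, and 327 of 5976 were at least 2-fold different under ABA (5.47%), 177 higher and 150 lower. The highest were 259553_x_at, with signals of 122 on overexpressor ABA and 14.2 on vector ABA, and 181 on overexpressor mock against the floor on vector mock, and 260623_at, with 69.3 on overexpressor ABA and the floor on vector ABA. The lowest were 246531_at, at the floor on overexpressor ABA and at 75.3 on vector ABA, and 249036_at, at the floor on overexpressor ABA and at 73.2 on vector ABA.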

How the results depend on the processing

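No paired analysis was possible because each group is 1 array and all carry the same replicate number. The count of genes at least 2-fold higher (288) was 164 with quantile normalization, 142 with loess, 141 with the floor at the 40th percentile, 53 of 4669 with the filter at the 60th percentile, 737 of 13356 with no filter, 477 of 13645 over all probe sets and 54 at 3-fold. The count of lower genes (156) was 90 with the higher floor, 59 with the higher filter, 276 with no filter, 323 over all probe sets and 37 at 3-fold, and 218 and 221 with quantile normalization and loess. Centring on the median gave 200 higher and 195 lower, and filtering on the ABA arrays alone 295 higher and 126 lower. The median of all genes (0.08) was -0.02 after centring and lay between -0.02 and 0.09 over these settings. Dim genes shifted by more, since the median of the dimmest of 10 bins was 0.28 as deposited and 0.05 with quantile normalization. The P450 median (0.11) was -0.00277 with loess, and the calcium median (-0.27) was 0.06 over 2 genes with the higher filter.

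Under both sprays, the count of higher genes (23) was 15 with the higher floor, 9 with the higher filter and 46 with no filter, and that of lower genes (28) was 18, 13 and 43. The count of genes in opposite directions (37) was 21 with quantile normalization, 14 of them among the 37, and 6 with the higher floor, 2 with the higher filter and 97 with no filter. The cause of these shifts was not tested, except that a higher filter leaves fewer genes and a higher floor shortens differences of dim genes. Of the values of 148 named genes under alternatives, 28 moved by over 1.5-fold, all with the higher floor, and 0 of those past 2-fold changed sign. Of 135 list medians 1 moved, that of XTH, to -0.81 over 5 genes with the higher filter.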
